A study of Mus musculus with 4 samples.

Results

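Stem-like cells were studied in 3 libraries of Kit+ mouse bone marrow. Kit is the receptor for stem cell factor and marks hematopoietic stem and progenitor cells. A stem-like cell was a cell barcode with at least 1 UMI (unique molecular identifier, 1 counted RNA molecule) of Hlf and at least 1 UMI of Mecom or Procr. Its counts of Elane, Car1, Pf4, Fcer1a and Cd79a, genes of neutrophil, erythroid, megakaryocyte, mast or basophil and B cells, had to lie under 5, 3, 3, 3 and 3 UMIs. The cells were thus selected on their counts of these 8 genes, whose cell counts and sums are given below as a description. This rule found 1666 cells among 38887 kept cells of the 3 libraries, of which 836 were control, 67 were Mll3/4 deleted and 763 were Mll3/4SI. All 3 libraries held CD45.2+ cells taken 10 weeks after transplantation, with 1 library per group. The labels name the groups control, Mll3/4 deleted and Mll3/4SI. They do not expand SI, do not give the deleting agent, the mice per library or their ages, and name no strain. Because each group is 1 library, no difference below has a replicate check, and every interval is a 95% interval that covers counting error only.

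Hematopoietic stem cells (HSCs) sit at the top of the blood hierarchy, divide rarely and give rise to multipotent progenitors, which divide more often. Hlf and Mecom encode transcription factors needed for HSC maintenance, and Procr encodes the endothelial protein C receptor, a surface marker of HSCs. MLL3 and MLL4, encoded by Kmt2c and Kmt2d, are methyltransferases that place histone H3 lysine 4 monomethylation at enhancers. By its title, the series asks how far these proteins act in HSCs apart from their enzymatic function.

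Control stem-like cells held 7136725 UMIs, deleted ones 909586 and SI ones 8559677. Their median depth was 7646, 13616 and 10396 UMIs per cell, so the control cells were the shallowest of the stem-like cells. Over all kept cells the medians were 12199, 6832 and 12349 UMIs, so there the deleted library was the shallowest. Kmt2c stood at 82.95 UMIs per 1000000 UMIs (CPM, 76.4 to 89.9) in control, 52.8 CPM (38.9 to 69.97) in deleted and 75.1 CPM (69.4 to 81.2) in SI stem-like cells. Kmt2d stood at 25.5 CPM (21.9 to 29.5), 8.80 CPM (3.797 to 17.3) and 20.9 CPM (18.0 to 24.2). The deleted cells were lowest for both genes, and the control and SI intervals overlapped. These libraries count transcripts from their 5′ ends and the labels do not name the deleted exons, so the counts do not check the deletion. Y-linked genes were counted in 60 of 67 deleted stem-like cells, with 163 UMIs, and in 0 control and 0 SI stem-like cells. Xist, the RNA of the inactive X chromosome, stood at 577 CPM in control and 573 CPM in SI stem-like cells, and had 0 UMIs in deleted ones. Sex and genotype therefore cannot be told apart for the deleted cells. Between 214 and 254 barcodes were shared by each pair of these libraries, and 1 barcode was stem-like in both the control and SI libraries and 1 in both the deleted and SI libraries.

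The selected cells carried more HSC transcripts in sum than cells chosen for a progenitor gene, with an exception in the deleted library. Flt3 cells, with at least 2 UMIs of Flt3, none of Hlf and the same exclusion limits, served as a comparison. The libraries held 325 (control), 28 (deleted) and 304 (SI) of them. Of 62 HSC genes from 3 lists, none of which the rule used, 58 were higher in stem-like than Flt3 cells of the control, 47 for deleted and 56 for SI cells. Of all 11073 tested genes, 61.3%, 49.1% and 59.1% were higher in the same comparisons. Their summed CPM was 1.66 times (1.63 to 1.69) that of Flt3 cells in control, 1.33 times (1.25 to 1.41) in deleted and 1.34 times (1.32 to 1.36) in SI. The exception was the regulators, which stood at 3397 CPM in deleted stem-like and 3521 CPM in deleted Flt3 cells. The deleted Flt3 cells held 7687 CPM of B-lineage genes, against 138 CPM in control Flt3 cells. The deleted contrasts with Flt3 cells are therefore not like those of the other libraries. Multipotent progenitor genes went the other way, with sums of 0.641, 0.646 and 0.718 times those of Flt3 cells. The gene Flt3 belongs to that list and chose the Flt3 cells, and without it the sums were 0.665, 0.704 and 0.729 times. HSC genes were not alone in being higher than in Flt3 cells. In control, deleted and SI, G2/M genes stood at 1.14, 0.920 and 1.11 times. S phase genes stood at 0.849, 0.905 and 0.971 times. Megakaryocyte genes stood at 2.01, 5.55 and 1.25 times, and erythroid genes at 2.62, 3.90 and 0.314 times. Mast cell and basophil genes stood at 2.18, 6.69 and 0.736 times, and granulocyte and monocyte genes at 0.486, 0.766 and 0.401 times. Each cell was then thinned to 4000 UMIs, which left out 64 control, 2 deleted and 18 SI cells. Mpo, a myeloid granule enzyme, was detected in 62.8% of control, 49.2% of deleted and 70.1% of SI stem-like cells. In erythroid reference cells (Klf1 at least 1 and Car1 at least 10 UMIs) it was detected in 32.3%, 5.97% and 38.3%. Slamf1, which encodes the HSC marker CD150, was detected in 2.98% of control, 12.3% of deleted and 2.15% of SI stem-like cells. The erythroid reference shares of Slamf1 were 5.36%, 5.97% and 4.49%. The deleted shares rest on 8 of 65 stem-like and 4 of 67 erythroid cells, with overlapping intervals of 5.47% to 22.8% and 1.65% to 14.6%. None of the 3 Slamf1 shares is read as expression, and whether erythroid progenitors express the gene themselves was not tested. Fgd5, an HSC reporter gene, was detected in 3.37% of control stem-like cells and in 0.0400% of control erythroid reference cells. The erythroid reference cells had full-depth medians of 20399 (control), 20449 (deleted) and 21361 UMIs (SI).

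Stem-like cells were scarce in the deleted library and about as frequent in the SI library as in the control. They made up 7.03% (6.58 to 7.505) of 11891 kept control cells, 0.449% (0.348 to 0.570) of 14915 kept deleted cells and 6.32% (5.89 to 6.76) of 12081 kept SI cells. The log2 ratio of shares was -3.97 (-4.35 to -3.61) for deleted over control. For SI over control it was -0.15 (-0.30 to -0.011). Flt3 cells had similar ratios, at -3.86 (-4.48 to -3.31) and -0.12 (-0.35 to 0.11). The deleted Flt3 cells carried many B-lineage transcripts, so their ratio is not one of like cells. The SI share ratio moved to -0.36 when Hlf and Procr were both required, and to -0.04 when Hlf needed 2 UMIs. These shares describe sorted Kit+ cells, so they depend on the size of every other class in the gate. The rule needs single UMIs, so they also depend on depth, and the kept deleted cells were the shallowest. Applied after thinning to 4000 UMIs, the rule found 435 control, 23 deleted and 384 SI cells.

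**Figure D1:**
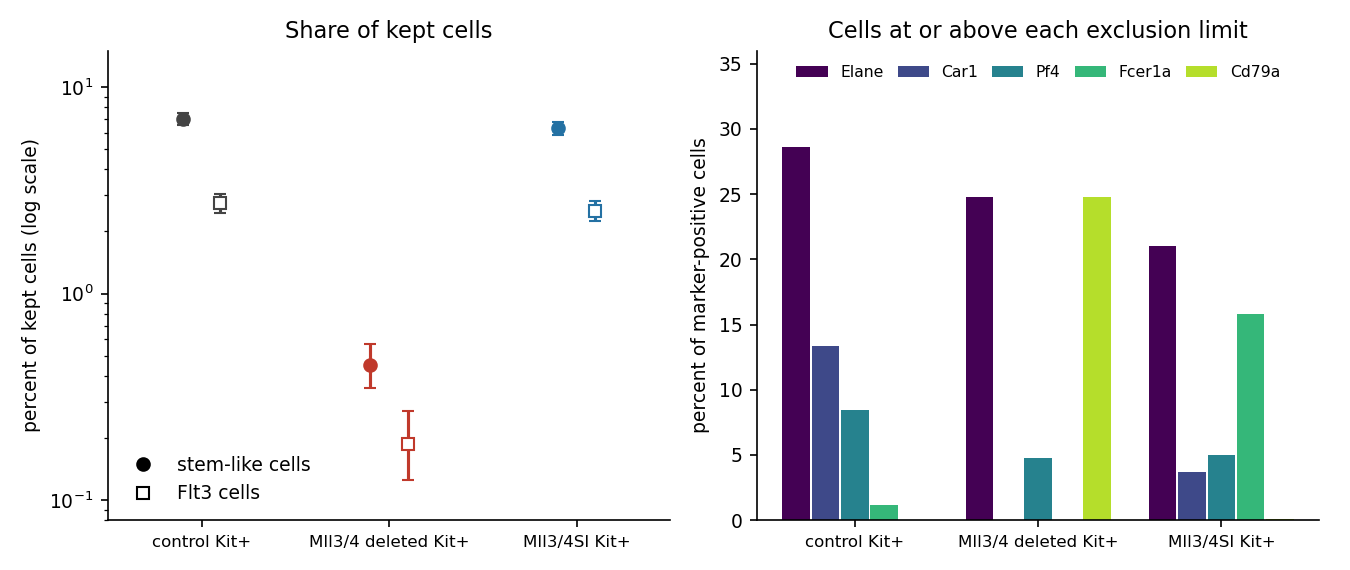
Left, stem-like cells (filled circles) and Flt3 cells (open squares) as a percent of kept cells on a log axis, with exact binomial 95% intervals. The deleted library sits at 0.449% stem-like cells, against 7.03% in control and 6.32% in SI. Right, the percent of cells with the Hlf and Mecom or Procr signal that reached the limit of each exclusion gene, where Fcer1a is high in SI and Cd79a in deleted cells.

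Exclusion genes removed different cells in each library. Of 1419 control barcodes with the marker combination, 583 were removed, against 58 of 125 deleted and 462 of 1225 SI barcodes. Elane, a neutrophil protease, removed 406 control, 31 deleted and 258 SI barcodes. Car1, an erythroid carbonic anhydrase, removed 189, 0 and 45, and Pf4, a platelet chemokine, 120, 6 and 61. Fcer1a, part of the IgE receptor of mast cells and basophils, removed 16 control and 194 SI barcodes, and Cd79a, part of the B-cell receptor, removed 31 deleted barcodes and at most 1 in the others. Barcodes could reach several limits. Just inside the Elane limit, at 4 UMIs, stood 36 control, 1 deleted and 57 SI cells, and just outside, at 5 UMIs, stood 23, 1 and 50 barcodes. Most stem-like cells entered through Mecom without Procr, 660 in control, 60 in deleted and 624 in SI. Procr was present in 176, 7 and 139. Hlf rested on 1 UMI in 331, 32 and 265 stem-like cells. A further 547 control, 27 deleted and 925 SI barcodes had Hlf but neither Mecom nor Procr, so Hlf without its partners was most frequent in SI. Hlf, Mecom and Procr summed to 559 CPM in control, 433 CPM in deleted and 453 CPM in SI stem-like cells. All 3 were lower in SI than in control. The 5 exclusion genes summed to 183, 73.7 and 172 CPM. The rule partly fixes these values, so they are a description only. A Scrublet doublet score above 0.25 was found in 9 control, 1 deleted and 9 SI stem-like cells.

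Most genes had nearly the same level in SI and control stem-like cells. Among 11073 genes with at least 50 UMIs over both groups, the median log2 ratio of CPM + 1 was 0.015 and the median absolute ratio 0.14. At 2-fold or more, 90 genes (0.813% of those tested) were higher in SI and 90 (0.813%) were lower. Of the 90 higher genes, all 90 had a ratio above 0 and 70 were also 2-fold higher in the other kept cells. Of the 90 lower genes, 77 had a ratio below 0 there and 33 were also 2-fold lower. In those other cells, 2.02% of the same genes were 2-fold higher and 0.569% 2-fold lower, and in Flt3 cells 1.78% and 1.25%.

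**Figure D2:**
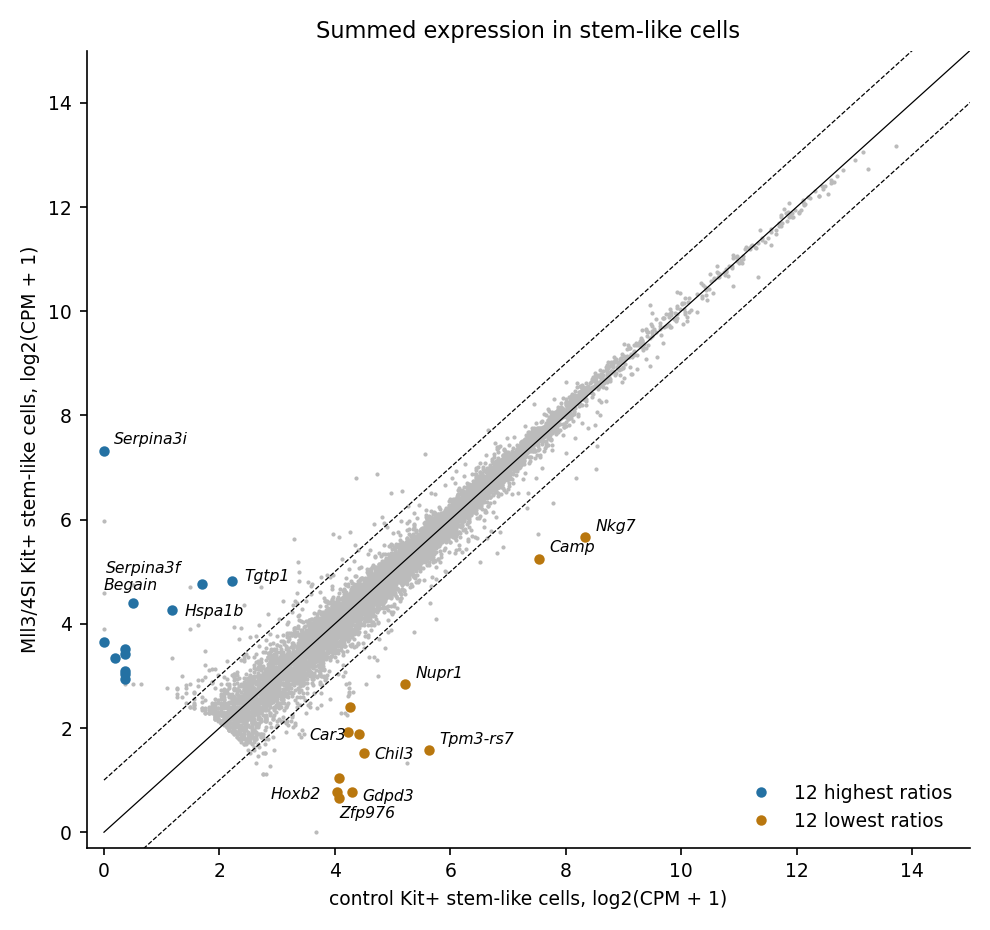
Log2(CPM + 1) of 11073 genes summed over control (x) and SI (y) stem-like cells; the solid line marks equal levels and the dashed lines 2-fold differences. The 12 highest (blue) and 12 lowest ratios (ochre), chosen without predicted, antigen receptor and sex-linked genes, lie far from the line, led by Serpina3i at 0 in control and Tpm3-rs7 at 48.8 CPM in control against 1.99 CPM in SI.

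Serpina3i, a serine protease inhibitor gene on mouse chromosome 12 (GRCm38, 104263122 to 104269372), was the extreme case. It had 0 UMIs in control, 0 in deleted and 1364 in SI stem-like cells, where 501 cells carried it. Set against a floor of 3 counts per library, SI was at least 379-fold higher, and the exact interval, which also covers the counting error of the SI library, starts at 308-fold. At 4000 UMIs it was detected in 39.6% (36.1 to 43.2) of SI stem-like cells and in 11.4% (9.47 to 13.7) of SI erythroid reference cells. In control stem-like cells 0 of 772 had a UMI of it. A floor of 3 cells in place of 0 puts the share of cells with a UMI at this depth at up to 0.389%. Its neighbour Serpina3f, 104214544 to 104221129, had 16 control, 2 deleted and 225 SI UMIs, a CPM ratio of 11.7 (7.06 to 20.9). Begain, a postsynaptic scaffold gene at 109032187 to 109068217 on the same chromosome, had 3 control, 2 deleted and 173 SI UMIs, a ratio of 48.1 (16.2 to 235). Degs2, a sphingolipid enzyme gene at 108678711 to 108702315, had 2, 0 and 83. Serpina3 family members resemble each other in sequence, which leaves the split of reads between them uncertain.

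The other genes among the 12 highest were of several kinds, and 5 of them had a higher CPM in deleted than in control cells, on 4 to 17 deleted UMIs. Hspa1a and Hspa1b, adjacent genes for inducible HSP70 on chromosome 17, had 2 and 9 UMIs in control and 89 and 157 in SI. Their levels were 0.280 and 1.26 CPM in control, 4.40 and 11.0 CPM in deleted, and 10.4 and 18.3 CPM in SI. They are near-identical copies, so the split between them is uncertain, and no other tested gene of the heat-shock list was 2-fold higher. Hist1h4m, a histone H4 gene, stood at 0 CPM in control, 15.4 CPM in deleted and 11.6 CPM in SI, at least 27.5-fold higher in SI under the same floor, with an exact interval that starts at 21.96-fold. Zfp981, a zinc finger gene, stood at 0.140, 9.89 and 9.11 CPM, on a single control UMI. Tgtp1, an interferon-induced GTPase gene, stood at 3.64, 18.7 and 27.5 CPM, an SI ratio of 7.54 (5.02 to 11.8). Rbm44, Dscam and Pakap (ENSMUSG00000038729) had 2 UMIs each in control, 0 in deleted, and 65, 62 and 57 in SI. All 12 genes were also 2-fold higher in the SI library among Flt3 cells and among all other kept cells, so none of them was high in stem-like cells alone.

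Tpm3-rs7, annotated as a tropomyosin 3 related sequence on chromosome 14 (113314608 to 113316754), had the lowest ratio. It had 348 UMIs in control, 1 in deleted and 17 in SI stem-like cells, an SI ratio of 0.0407 (0.0235 to 0.0662). It was low in both altered libraries, and similar tropomyosin sequences make its count uncertain. Hoxb2, a homeobox transcription factor gene on chromosome 11 (96350525 to 96354012), stood at 15.4 CPM in control, 5.50 CPM in deleted and 0.701 CPM in SI, on 110, 5 and 6 UMIs. At 4000 UMIs Hoxb2 was detected in 7.25% of control and 0.134% of SI stem-like cells, with 2.28% and 0.107% in erythroid reference cells. Hoxb3os, a long noncoding RNA gene, had 113, 2 and 9 UMIs. Its annotation spans that of Hoxb2 on the opposite strand, so reads of the pair may not be fully separated. Nkg7, a granule membrane protein gene best known from cytotoxic cells, stood at 323 CPM in control, 108 CPM in deleted and 49.9 CPM in SI, and its share of cells at 4000 UMIs was 64.1% in control, 24.6% in deleted and 16.6% in SI. In erythroid reference cells the Nkg7 shares were 36.01%, 16.4% and 10.2%, so control was highest there too.

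Gdpd3, a lysophospholipase gene, stood at 18.6 CPM in control, 10.99 CPM in deleted and 0.701 CPM in SI, and Car3, a carbonic anhydrase gene, at 20.5, 8.80 and 2.69 CPM. Siglecf, a sialic acid binding receptor gene, stood at 17.8, 1.10 and 2.80 CPM, and Arhgap31, a GTPase activator gene, at 18.2, 13.2 and 4.32 CPM. Zfp976, a zinc finger gene, stood at 15.8, 24.2 and 0.584 CPM, and its deleted ratio of 1.53 (0.921 to 2.43) does not set deleted cells apart from control. Nupr1, a stress-response gene, stood at 36.3, 71.5 and 6.19 CPM, and 5 of the 67 deleted cells held 55.4% of its 65 deleted UMIs, so no direction is read for the deleted library. In Flt3 cells it had 7 control and 8 SI UMIs, too few to compare. Chil3 and Camp, genes of neutrophil granule and secretory proteins, rested on few cells. Chil3 was found in 6 control and 4 SI stem-like cells. For S100a8, S100a9, Camp, Ngp, Ltf and Lcn2 together, 4 control cells held 97.9% of 6670 UMIs and 2 SI cells held 92.0% of 2576 UMIs. Without those cells, the log2 ratio of Chil3 changed sign to 0.31, that of Camp moved from -2.28 to -0.49, and no other gene of the 24 changed sign. In Flt3 cells and in other kept cells, 10 of the 12 lowest genes were 2-fold lower in each; Arhgap31 was an exception in both, with Nupr1 in Flt3 cells and Camp in other kept cells. Of all 24 named genes, 13 had another of them within 2 Mb, against 5.86% of tested genes with a named gene that near. These were the Serpina3, Begain and Degs2, Hspa1, Gdpd3 and Nupr1, Zfp976, Nkg7 and Siglecf, and Hoxb groups.

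HSC genes were mostly lower in SI than in control stem-like cells, by small amounts. Of 62 genes in 3 lists, 55 passed the count minimum, 48 with a ratio below 0 and 7 above it, against 46.7% and 53.3% of all tested genes. Their median log2 ratio was -0.31, 5 were 2-fold lower (against 0.813% of tested genes) and 0 were 2-fold higher. The same genes had medians of -0.11 in Flt3 cells and -0.12 in other kept cells. The summed CPM was 8708 in control and 7904 in SI, a ratio of 0.908 (0.898 to 0.918). The same sum was higher in SI in Flt3 cells, at 5248 and 5915 CPM, and in other kept cells, at 4416 and 5014 CPM. Members of low count enter the median only if either library counted them, so it describes the 55 and not the whole lists.

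Transcription and chromatin regulators of HSCs had a median of -0.25, with 17 of 19 below 0 and 0 past 2-fold, and a summed ratio of 0.899 (0.883 to 0.915). Mllt3, an HSC maintenance factor of the elongation machinery, stood at 67.8 CPM in control, 45.1 CPM in deleted and 41.6 CPM in SI, an SI ratio of 0.613 (0.533 to 0.705). Prdm16, a regulator of HSC quiescence, stood at 21.4, 8.80 and 11.3 CPM, a ratio of 0.529 (0.406 to 0.686). Mycn, a MYC family factor, stood at 34.2, 60.5 and 21.1 CPM, so it was lowest in SI and highest in deleted cells. Several core factors had nearly equal levels. Runx1 stood at 383 CPM in control and 378 CPM in SI, Erg at 217 and 211, Lmo2 at 645 and 633, and Msi2, an RNA-binding regulator, at 343 and 347. Meis1 was at 266 CPM in control and 224 CPM in SI, a ratio of 0.843 (0.790 to 0.898).

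Surface and signalling genes had a median of -0.23, with 16 of 20 below 0, but a summed ratio of 0.980 (0.962 to 0.999). Cd9, a tetraspanin, stood at 103 CPM in control, 98.9 CPM in deleted and 53.7 CPM in SI, an SI ratio of 0.520 (0.462 to 0.585). Esam, an adhesion molecule of HSCs and endothelium, stood at 29.1, 22.0 and 15.9 CPM. Pdzk1ip1, used as an HSC reporter gene, stood at 81.7, 47.3 and 50.5 CPM. Ly6a, which encodes Sca-1 and responds to interferon, was the highest of the 4 members above 0. It stood at 115 CPM in control, 96.7 CPM in deleted and 169 CPM in SI, an SI ratio of 1.47 (1.34 to 1.60), and was also higher in SI Flt3 cells, with a log2 ratio of 0.51. Adgrg1, Cd81 and Angpt1, the other members above 0, had ratios of 1.04, 1.01 and 1.07. Kit itself, the gate's marker, stood at 350, 313 and 324 CPM.

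The lowest of the 3 lists was that of other HSC-enriched genes, with a median of -0.80, 15 of 16 below 0 and a summed ratio of 0.842 (0.825 to 0.859). All 5 of the 2-fold lower HSC genes belong to it. Cdkn1c, which encodes the cell-cycle inhibitor p57, stood at 17.4 CPM in control, 12.1 CPM in deleted and 6.19 CPM in SI, a ratio of 0.356 (0.253 to 0.495). Apoe, an apolipoprotein, stood at 288, 100.05 and 111 CPM, a ratio of 0.384 (0.355 to 0.415). Aldh1a1, a retinaldehyde dehydrogenase, stood at 10.9, 23.1 and 4.32 CPM. Tgm2, a transglutaminase, stood at 10.1, 4.40 and 2.69 CPM, and Trim47 at 29.3, 12.1 and 13.4. Txnip, a thioredoxin inhibitor, stood at 385, 180 and 256 CPM, low in both altered libraries. Ifitm3, an interferon-inducible membrane protein gene, was the single member above 0, at 721, 730 and 997 CPM. In Flt3 cells this list had a median of -0.82, about that of the stem-like cells, with sums of 1447.5 CPM in control and 1411 CPM in SI, and in other kept cells -0.20.

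**Figure D3:**
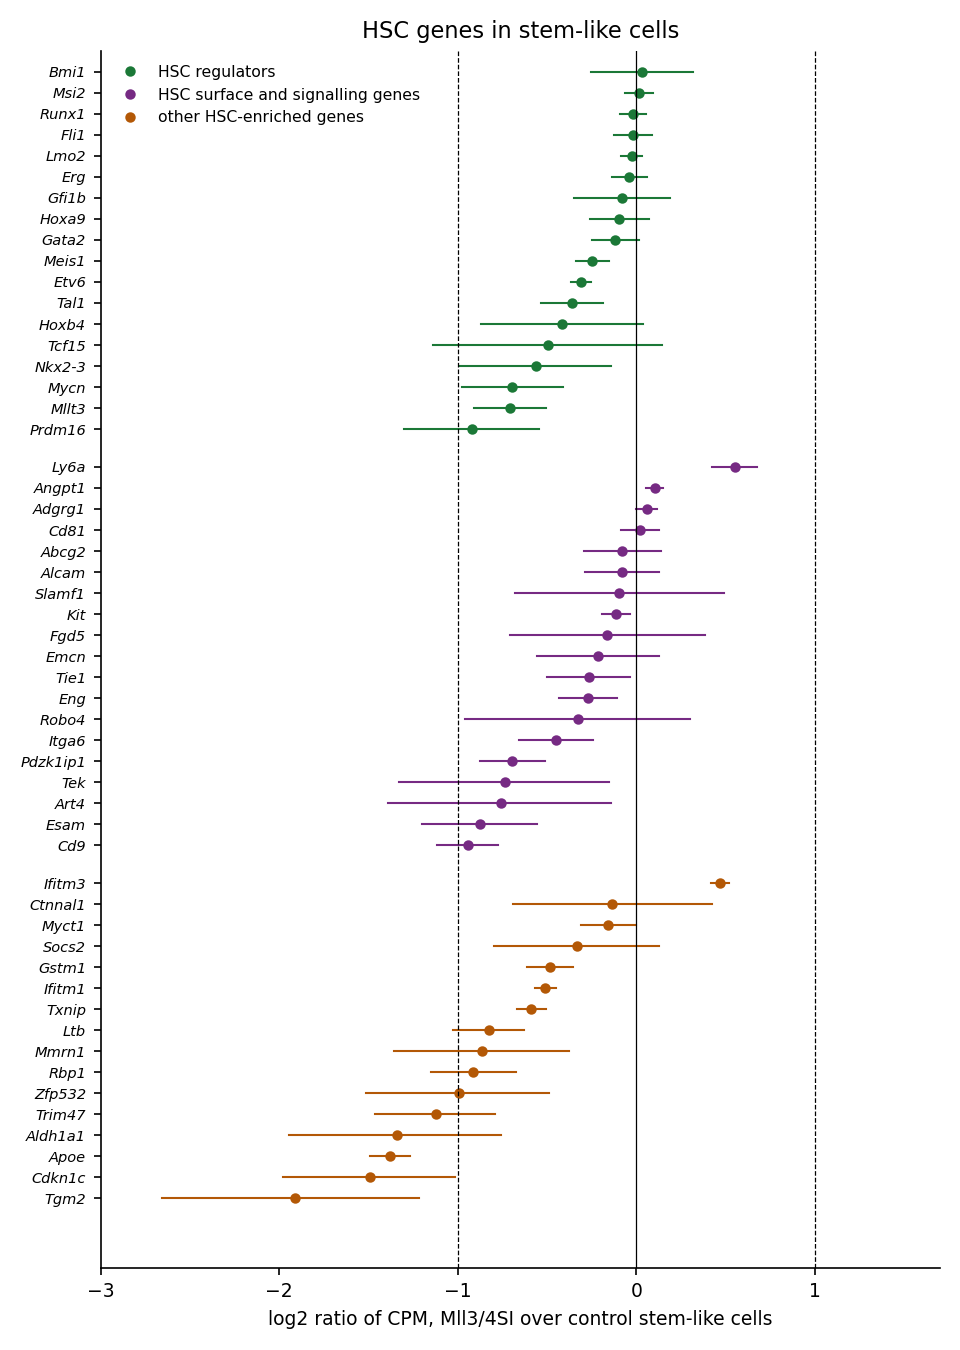
Log2 ratio of CPM, SI over control stem-like cells, for tested HSC genes of 3 lists except those not reported here, with 95% counting intervals (lines) and 2-fold differences (dashed). Most points lie left of 0, the 5 lowest of the third list past the dashed line, while Ly6a and Ifitm3 lie to the right.

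Hox genes, which encode homeobox factors active in early hematopoietic cells, were also mostly lower. Hoxa9, Hoxb4 and Hoxb5 belong to the HSC regulators too, so this list partly repeats that one. All 7 tested members had ratios below 0 (against 46.7% of tested genes). Their median was -0.38, and it was -0.27 in Flt3 cells and -0.36 in other kept cells. On CPM + 1, 1 of them, Hoxb2, was 2-fold lower in stem-like cells (against 0.813% of tested genes). Hoxa9, the most counted, stood at 80.6 CPM in control, 70.4 CPM in deleted and 75.5 CPM in SI, a ratio of 0.937 (0.836 to 1.05). Hoxb4 stood at 12.5, 9.89 and 9.35 CPM. Hoxb3 had 5.32, 2.20 and 2.22 CPM, which is past 2-fold lower in SI as plain CPM but not on CPM + 1. Multipotent progenitor genes had a median of 0.17, with 9 of 11 above 0 (against 53.3% of tested genes) and 0 past 2-fold. Cd48, a marker gained when HSCs differentiate, stood at 136 CPM in control, 174 CPM in deleted and 190 CPM in SI, a ratio of 1.40 (1.29 to 1.51). Flt3 stood at 120, 55.0 and 150 CPM. The 2 deviating members were Cd27 and Satb1, with ratios of 0.973 and 0.983.

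Cell-cycle genes were slightly higher in SI stem-like cells. All 20 S phase genes had ratios above 0 (against 53.3% of tested genes), and 0 were 2-fold higher. Their sum was 2394 CPM in control, 2437 CPM in deleted and 2744 CPM in SI, a ratio of 1.15 (1.12 to 1.17) for SI. Mcm6, of the replicative helicase, stood at 306, 323 and 355 CPM, and Rrm1, of ribonucleotide reductase, at 189, 200.1 and 232 CPM. In Flt3 cells 9 of the 20 were above 0 and in other kept cells 4, so the excess was seen in the stem-like cells and not in those comparison cells; the difference itself was not tested. Of 20 G2/M genes, 19 were above 0, with sums of 3529, 3135 and 3803 CPM and an SI ratio of 1.08 (1.06 to 1.10). In Flt3 cells 17 of the 20 were above 0, with a median log2 ratio of 0.16 against 0.13 in stem-like cells, and in other kept cells 11, with a median of 0.02. Mki67, the proliferation marker, stood at 341, 343 and 349 CPM, and Top2a at 366, 319 and 380 CPM. On the log2 scale the G2/M ratio ranged from 0.06 when Hlf needed 2 UMIs to 0.42 when Hlf and Procr were both required, so its size depended on the selection.

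Per cell, at 4000 UMIs, the median count of S phase and G2/M UMIs was 17 in control, 14 in deleted and 21 in SI stem-like cells. The lower quartiles were 6, 7 and 9 of these UMIs and the upper quartiles 33, 25 and 35. Among regulators of G1, Cdkn2c, encoding p18, stood at 30.4 CPM in control, 40.7 CPM in deleted and 45.4 CPM in SI, while Cdkn1b, encoding p27, stood at 79.4, 89.1 and 65.7 CPM. Of the 14 tested cyclin D, CDK and inhibitor genes, 5 were above 0 (against 53.3% of tested genes). The 1 member that was 2-fold lower (against 0.813%) was Cdkn1c, already counted among the other HSC-enriched genes. Median counts of HSC gene UMIs per cell were 34, 33 and 31, which overlap widely in all libraries.

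**Figure D4:**
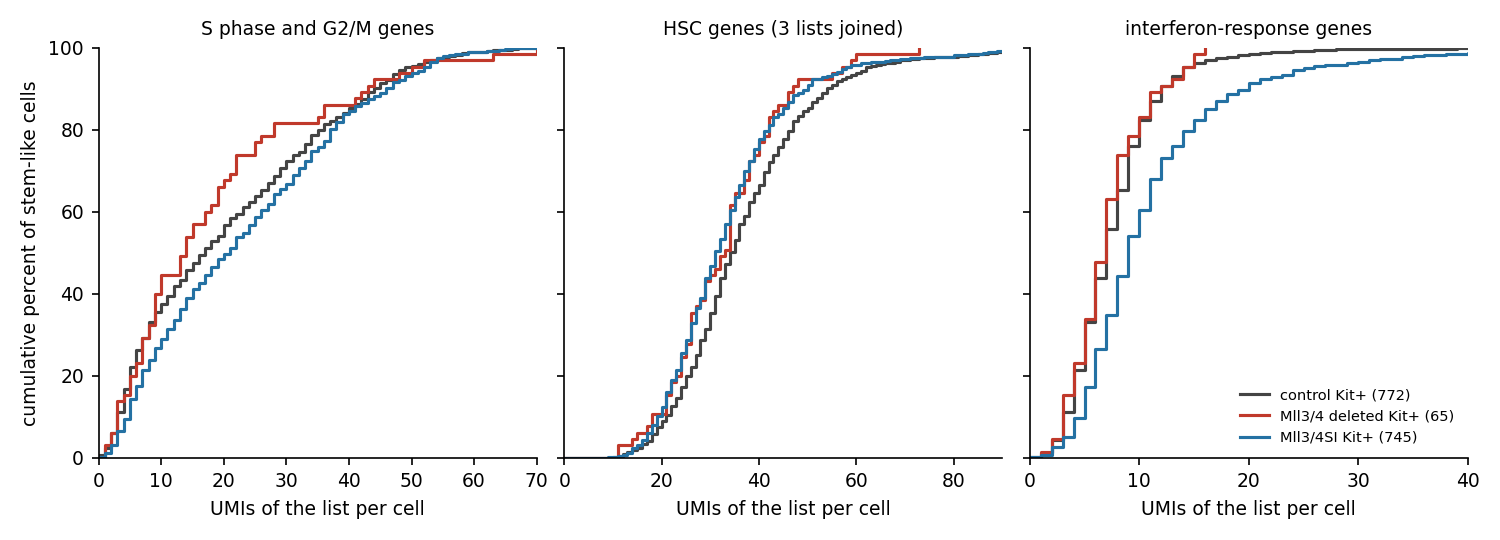
Cumulative percent of stem-like cells by UMIs of a gene list per cell, after thinning to 4000 UMIs, in 772 control, 65 deleted and 745 SI cells. The SI curve lies right of control for cell-cycle genes (median 21 against 17) and interferon-response genes (9 against 7) and left of it for HSC genes (31 against 34).

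Interferon-response genes were the list with the highest median in SI stem-like cells. Interferons induce these genes through transcription factors that bind a repeated GAAA element. Of 20 tested genes, 19 had ratios above 0 (against 53.3% of all tested genes) and 6 were 2-fold higher (against 0.813%). Their median was 0.67. The sum was 1872 CPM in control, 1832 CPM in deleted and 2682 CPM in SI, a ratio of 1.43 (1.40 to 1.46). Ifit3, an antiviral effector, stood at 2.10 CPM in control, 0 CPM in deleted and 14.7 CPM in SI, a ratio of 7.004 (4.09 to 12.9). Irf7, a transcription factor that amplifies the response, stood at 30.5, 16.5 and 90.3 CPM. Isg15, a ubiquitin-like modifier, stood at 34.7, 25.3 and 92.1 CPM, and Ifit1 at 6.17, 3.30 and 17.3 CPM. Oasl2 and Usp18, which removes ISG15, completed the 6. Irf1 was the single member below 0, at 105, 47.3 and 93.8 CPM. The medians were higher in SI Flt3 cells (1.13) and other kept cells (1.17), so the stem-like cells had the smallest of the 3 values. Per cell at 4000 UMIs the median was 7 UMIs in control, 7 in deleted and 9 in SI, and the 90th percentile was 12 UMIs in control and 20 in SI.

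The promoters of 3 of the 2-fold higher genes are shown because they hold the element in pairs or a run. They are RefSeq promoters of build GRCm38.p6, 250 bases before to 50 after the start, 5′ to 3′ on the gene's strand. Capitals mark matches, on either strand, to the motif GAAA NN GAAA, which is GAAA, any 2 bases and GAAA again. The positions are chr19:34583279-34583578 (plus strand) for Ifit3, chr4:156200769-156201068 (minus strand) for Isg15 and chr19:34640639-34640938 (plus strand) for Ifit1.
Ifit3: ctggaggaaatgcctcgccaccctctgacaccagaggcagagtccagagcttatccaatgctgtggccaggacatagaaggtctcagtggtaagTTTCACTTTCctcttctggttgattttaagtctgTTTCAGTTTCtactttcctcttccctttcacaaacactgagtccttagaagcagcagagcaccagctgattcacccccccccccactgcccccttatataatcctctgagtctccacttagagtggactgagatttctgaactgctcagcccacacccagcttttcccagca
Isg15: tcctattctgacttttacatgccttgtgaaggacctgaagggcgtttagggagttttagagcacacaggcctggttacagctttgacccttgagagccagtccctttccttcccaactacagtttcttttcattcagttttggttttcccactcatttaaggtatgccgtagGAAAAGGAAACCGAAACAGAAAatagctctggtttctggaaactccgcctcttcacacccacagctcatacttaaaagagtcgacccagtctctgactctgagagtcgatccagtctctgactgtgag
Ifit1: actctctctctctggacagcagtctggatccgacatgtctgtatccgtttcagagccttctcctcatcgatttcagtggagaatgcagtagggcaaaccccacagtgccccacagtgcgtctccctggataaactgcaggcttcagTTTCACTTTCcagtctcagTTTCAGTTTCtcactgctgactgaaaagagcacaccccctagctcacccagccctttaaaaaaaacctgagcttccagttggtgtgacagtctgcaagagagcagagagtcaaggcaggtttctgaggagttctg
Ifit3 and Ifit1 each hold 2 matches and Isg15 holds 3 that overlap. The motif was found in 53.3% of 15 tested interferon-response genes with a promoter in the table, in 3.93% of 8801 tested genes and in 3.44% of the 32851 promoters of this length that were searched. Irf7 and Oasl2, both 2-fold higher in SI, had no match in their windows. Matches were also found in Bst2, Rsad2, Igtp, Gbp2 and Stat2, at log2 ratios of 0.77, 0.87, 0.23, 0.21 and 0.16. Whether the motif goes with the SI ratio was not tested. Among the 12 highest SI genes, 9 had a promoter in the table and 1, that of Tgtp1, held the motif; of 8 among the 12 lowest it was found in 0.

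Antigen presentation genes differed by class. MHC class I genes, which interferon also raises, had a median of 0.07 and a summed ratio of 1.02 (1.01 to 1.03). MHC class II genes had a summed CPM of 651 in control, 284 in deleted and 520.0 in SI. All 6 tested members were below 0 in SI (against 46.7% of tested genes). Cd74, the invariant chain, stood at 106, 40.7 and 69.9 CPM, and H2-Eb1 at 66.8, 8.80 and 40.2 CPM. In the other kept cells the class II median was 0.79, in the opposite direction. Immediate early genes, which respond to cell stimulation and dissociation, had a median of -0.26 in SI, with Fos at 24.4, 0 and 15.3 CPM and Jun at 65.2, 11.0 and 83.3 CPM. Cytokine signalling genes had a median of -0.10 and p53 target genes of -0.16, with 0 members of either past 2-fold. Of genes for homing and adhesion, S1pr1, the sphingosine-1-phosphate receptor, was 2-fold lower, at 8.97 CPM in control, 1.10 CPM in deleted and 3.27 CPM in SI.

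Transcripts of other lineages moved in several directions. The limits on Elane, Car1, Pf4 and Fcer1a removed different cells in each library, with Fcer1a removing 16 control and 194 SI barcodes. The granulocyte, erythroid, megakaryocyte and mast cell values are therefore partly fixed by the selection. Erythroid genes were lower in SI, with all 8 tested members below 0 (against 46.7% of tested genes) and a median of -0.98. Their sum was 499 CPM in control, 449 CPM in deleted and 247 CPM in SI. Car2, most of that sum, stood at 369.6, 249.6 and 170.45 CPM. Hbb-bs and Hbb-bt, beta-globin genes, were the other 2-fold lower members (against 0.813% of tested genes). The median was -0.95 in other kept cells and -0.19 in Flt3 cells, where the sum was 191 CPM in control and 787 CPM in SI. Erythroid reference cells made up 21.1% of kept control and 7.77% of kept SI cells, and the part of their free RNA in these values was not tested. Mast cell and basophil genes had a sum of 204 CPM in control, 92.3 CPM in deleted and 303 CPM in SI, with 3 of 6 tested members above 0 and 3 below. Their median was 0.34, and 2 were 2-fold higher (against 0.813% of tested genes). All 6 were above 0 in Flt3 cells, with sums of 93.9 CPM in control and 412 CPM in SI. In other kept cells all 6 were above 0 too, with sums of 241 and 1012 CPM. Without Cpa3 the stem-like sum was 104 CPM in control and 92.1 CPM in SI. Cpa3, a mast cell protease, stood at 100.05, 44.0 and 211 CPM, and was detected at 4000 UMIs in 16.5% of control and 29.4% of SI stem-like cells. The matching Cpa3 shares in erythroid reference cells were 7.15% and 20.1%, so the share was higher in SI in both kinds of cell. How far free RNA of the SI library adds to this was not tested. Megakaryocyte genes had a summed SI ratio of 0.910 (0.864 to 0.958), with Selp, the P-selectin gene, at 84.6, 47.3 and 50.1 CPM, but Plek, a platelet kinase substrate, at 74.1, 52.8 and 113 CPM. Treml1, a platelet receptor gene, was the 2-fold lower member, at 5.18, 6.596 and 1.52 CPM. Granulocyte and monocyte genes had a summed ratio of 0.915 (0.899 to 0.930), and 1.03 (1.01 to 1.05) without S100a8 and S100a9, which rest on the few cells named above. The median log2 ratio of that list was 0.10, with 10 of 17 tested members above 0 (against 53.3% of tested genes). Markers of endothelium, stroma and macrophages summed to 3.64, 26.8 and 17.7 CPM in control and to 2.69, 24.7 and 7.13 CPM in SI.

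**Figure D5:**
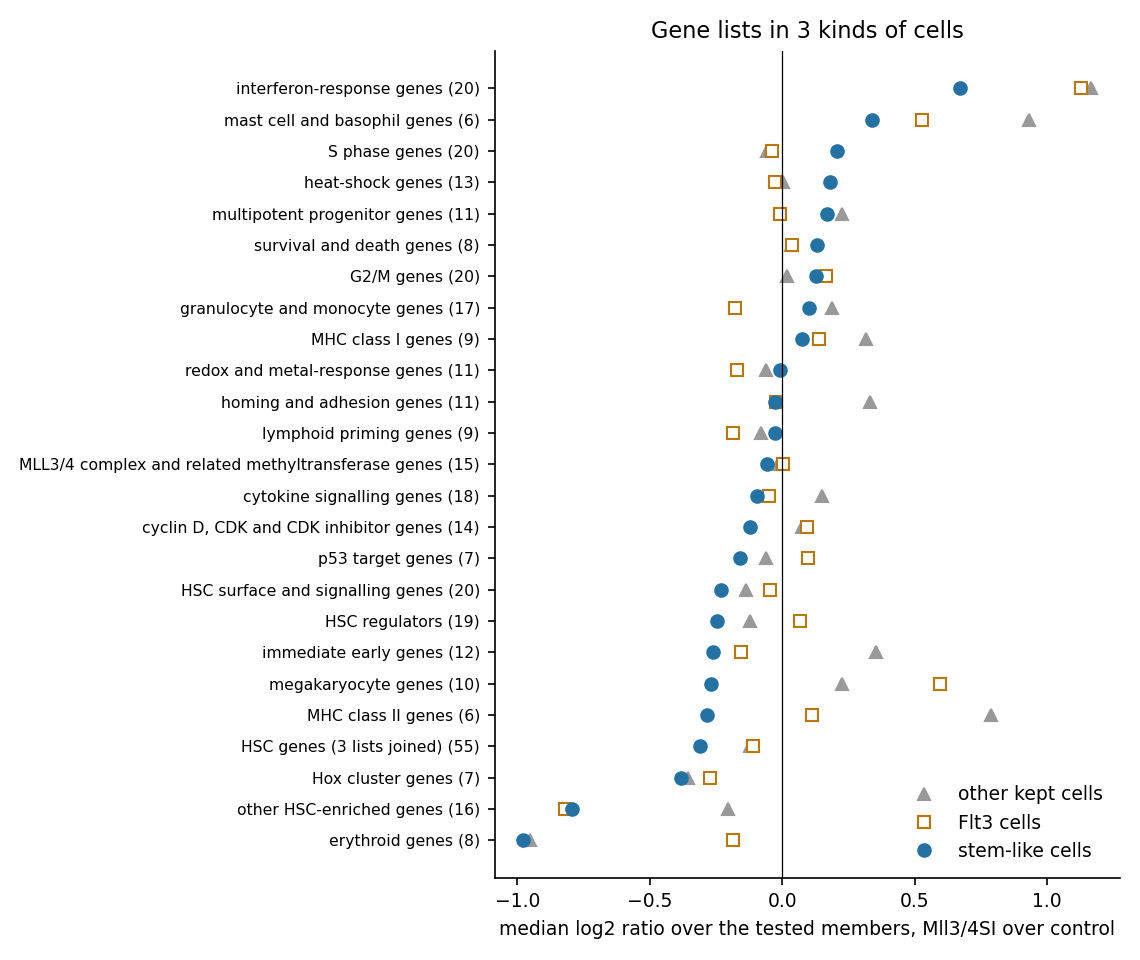
Median log2 ratio, SI over control, of each gene list (tested members in brackets) in stem-like cells (blue circles), Flt3 cells (open squares) and other kept cells (grey triangles). Interferon-response genes are highest in all 3, S phase genes are above 0 in stem-like cells only among the 3, and MHC class II genes lie on opposite sides in stem-like (-0.28) and other kept cells (0.79).

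Stem-like cells with Procr were compared with those without it, since Procr is a surface marker of HSCs and most cells entered through Mecom. Procr is a gene of the rule, and every stem-like cell without it had to carry Mecom. These contrasts are therefore partly fixed by the selection and are given as a description. In control, Procr-positive cells had a summed HSC gene CPM 1.13 times (1.11 to 1.15) that of the rest, and in SI 1.05 times (1.03 to 1.07). The other HSC-enriched genes stood at 1.33 times (1.28 to 1.37) in control and 1.21 times (1.16 to 1.25) in SI. HSC regulators stood at 1.002 times (0.970 to 1.03) and 0.974 times (0.943 to 1.01), with intervals that include 1. S phase genes stood at 0.839 times (0.805 to 0.873) in control and 0.876 times (0.846 to 0.907) in SI. G2/M genes stood at 0.800 times (0.774 to 0.828) in control but at 1.04 times (1.01 to 1.07) in SI. Ly6a was 2.12 times (1.83 to 2.46) as high in control Procr-positive cells and 1.54 times (1.37 to 1.74) in SI ones. Mpo was lower with Procr in both, at 0.713 times (0.666 to 0.763) and 0.576 times (0.539 to 0.614). Cd74 was 2.30 times (1.97 to 2.68) as high with Procr in control and 0.677 times (0.526 to 0.861) in SI. Cpa3 stood at 0.405 times (0.307 to 0.527) in control and 1.28 times (1.14 to 1.43) in SI. Among the measures given here, the intervals of control and SI overlap for HSC regulators and S phase genes. They do not overlap for HSC genes in sum, other HSC-enriched genes, G2/M genes, Ly6a, Mpo, Cd74 and Cpa3. Each interval covers the counting error of summed UMIs in 1 library and not the spread between cells. Whether the Procr contrast differs between the libraries was not tested. In the deleted library Procr was found in 7 cells, and they held 35 of the 37 Cd74 UMIs of the deleted stem-like cells; other genes of these 7 cells are not described.

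The 67 deleted stem-like cells were read mainly as sums of lists. HSC genes together stood at 7846 CPM, 0.901 times (0.879 to 0.923) control, with regulators at 1.01 times (0.975 to 1.05) and other HSC-enriched genes at 0.733 times (0.697 to 0.770). The ratio of all HSC genes was -0.15 on the log2 scale and -0.27 when the rule was applied after thinning to 4000 UMIs. Multipotent progenitor genes stood at 0.806 times (0.772 to 0.842), with Flt3 at 0.457 times (0.337 to 0.608) control. S phase genes stood at 1.02 times (0.974 to 1.06) and G2/M genes at 0.888 times (0.854 to 0.923). MHC class II genes stood at 0.436 times (0.383 to 0.494), immediate early genes at 0.619 times (0.544 to 0.702), and mast cell and basophil genes at 0.452 times (0.358 to 0.563). Granulocyte and monocyte genes stood at 0.697 times (0.667 to 0.728), a log2 ratio of -0.52. It became -0.25 without the 4 granule-rich control cells. The mast cell and granulocyte values are partly fixed by the limits on Fcer1a and Elane.

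Among single genes of the deleted cells, Def8, which takes part in lysosome positioning, was the clearest. It stood at 89.1 CPM in control, 1336 CPM in deleted and 78.4 CPM in SI stem-like cells, a deleted ratio of 14.99 (13.6 to 16.5), and was counted in 66 of 67 deleted cells. It was higher still in the other kept deleted cells, at 1690.3 CPM. Syce1, a meiotic synaptonemal gene, had 0 UMIs in control, 42 in deleted and 0 in SI, at least 109.8-fold higher in deleted cells under the same floor, with an exact interval that starts at 85.5-fold. Its UMIs lay in 18 of the 67 deleted cells, and 5 cells held 47.6% of them. Mt1, a metallothionein, stood at 37.3, 255 and 37.0 CPM. Socs2, an inhibitor of cytokine signalling, stood at 11.6, 66.0 and 9.23 CPM, and Bex4 at 9.95, 56.1 and 12.9 CPM. In the other kept cells Socs2 stood at 2.12 CPM in control and 218 CPM in deleted, so it was not high in stem-like cells alone. Mt1 stood there at 419 and 355 CPM and Bex4 at 32.0 and 24.8 CPM, lower in deleted. The part of free RNA in these values was not tested. Slamf1, which is not among the 5 highest, stood at 6.87, 30.8 and 6.43 CPM in stem-like cells. Given its shares above, no direction is read for it. Agbl4, a tubulin deglutamylase gene, had 301 UMIs in control, 0 in deleted and 309 in SI, at least 12.8-fold lower in deleted cells under the floor, with an exact upper limit of 0.0967 for the ratio. The other 4 of the 5 lowest, S100a8, S100a9, Camp and Ngp, rest on the few granule-rich control cells. Kdm6a, an X-linked partner of MLL3 and MLL4 that escapes X inactivation, stood at 77.3, 36.3 and 65.8 CPM, and the part of sex in that value cannot be told apart.

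B-lineage genes stood at 140.1 CPM in control, 229 CPM in deleted and 120.2 CPM in SI stem-like cells, a deleted ratio of 1.63 (1.40 to 1.90). In the deleted library they stood at 12969 CPM in the other kept cells, 7687 CPM in Flt3 cells and 1990 CPM in erythroid reference cells. At 4000 UMIs Ebf1, Cd79a and Igll1 were detected in 10.8%, 15.4% and 13.8% of deleted stem-like cells and in 25.4%, 31.3% and 26.9% of deleted erythroid reference cells. The rule caps Cd79a at 2 UMIs in stem-like cells and not in erythroid ones, and it removed 31 deleted barcodes for that gene, so the lower shares of these 3 genes are partly fixed by the selection. The part of free RNA in them was not tested. Control and SI stem-like cells had 0 cells with Ebf1 or Igll1 at that depth. Immunoglobulin contigs from the matching receptor files were assigned to 0 stem-like barcodes of the 3 libraries. For 67 deleted cells, a floor of 3 cells in place of 0 puts the share with a contig at up to 4.48%. The Cd79a limit of the rule removes B cells, so this count is partly fixed by the selection too.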

How the data were processed

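The deposited files are 10x Genomics 5′ v2 single-cell matrices of unnormalized UMI counts per gene and barcode, with immunoglobulin contig tables. Per the submitters' processing notes they come from Cell Ranger 7.1.0 and the mm10 build; the role of intronic reads and of strand in counting is not given in the sources used here. Barcodes with at least 1000 UMIs, 500 genes and at most 10% mitochondrial UMIs were kept, which left 11891, 14915 and 12081 of 12205, 15091 and 12345 barcodes in the control, deleted and SI libraries. Library totals were 163751605, 130424242 and 166327773 UMIs.

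Counts were summed over the cells of a class in each library, divided by all UMIs of those cells (CPM), and compared as log2 ratios of CPM + 1, as the CPM ratio with an exact conditional binomial interval, or as shares of cells with Clopper-Pearson intervals. With 1 library per group there was no test across genes and no p-value. Intervals and floors cover counting error only. Positions come from GENCODE M21 (GRCm38). The sums and intervals were tested on simulated counts. Doublets were left in and scored with Scrublet; its own threshold called 1202, 0 and 1 barcodes in the control, deleted and SI libraries, so a score of 0.25 was used for the alternative without them.

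The rule used Hlf, Mecom, Procr and the 5 exclusion genes, whose values are descriptions only. The members and lists were chosen with earlier results of these data known. Named genes were the 12 highest and 12 lowest SI ratios among genes with at least 50 summed UMIs, and the 5 highest and 5 lowest deleted ratios among genes with at least 30 UMIs in the higher library. Antigen receptor, mitochondrial, ribosomal protein, predicted and sex-linked genes were left out, and members of the gene lists were named besides. Python 3.11.15, scipy 1.17.1, scanpy 1.11.5 and matplotlib 3.10.9 were used. Alternatives covered the cell filter, doublets, the rule, the count minimum, the pseudocount, the total and the averaging. Some members of the gene lists are not reported here by name; they stay in the counts, medians and sums. List sums without S100a8 and S100a9, Cpa3 or Flt3 were added after seeing the data.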

Additional observations from a re-analysis of the deposited data

Results flagged for a closer look

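In the control B220lo library, which the comparisons above do not use, 5 of 16329 kept barcodes met the stem-like rule, more than a count of 0 would allow at 3. They held 53038 UMIs, and 1 of the 5 carried a contig, on 2 UMIs. Camp was lower in SI than in control stem-like cells (log2 ratio -2.28) and higher in SI erythroid reference cells (1.10). This difference in direction was not tested, and the stem-like value rests on the few granule-rich cells.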

How the results depend on the processing

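No paired analysis was possible because each group is 1 library, so the groups share fewer than 2 replicate numbers. Requiring Hlf and Procr moved the log2 share ratios to -0.36 (SI) and -4.98 (deleted), the 2-fold higher and lower genes to 52 and 49, and the S phase and G2/M ratios to 0.25 and 0.42, on 176 control, 7 deleted and 139 SI cells. The G2/M ratio, 0.11 in the report's setting, was 0.076 with Hlf and Mecom, 0.065 with Hlf at 2 UMIs, 0.082 without ribosomal protein and mitochondrial genes in the total, 0.20 as a mean over cells and 0.18 without the 5% of cells with most UMIs. The S phase ratio was 0.26 as a mean over cells. Applying the rule after thinning gave 0.24 for S phase, 0.36 for G2/M, and -0.27, 0.98 and -0.24 for the HSC, B-lineage and granulocyte lists of the deleted cells. The granulocyte value was -0.43 without high doublet scores and -0.25 without granule-rich cells, a choice made after seeing the data. Counts of 2-fold higher and lower genes were 46 and 42 with a pseudocount of 5 CPM, 37 and 27 with 200 UMIs, and 154 and 171 without a count minimum. The difference in the share of cells with Nkg7 was -47.5 percentage points at 4000 UMIs, -35.1 at 2000 and -40.6 unthinned. Among the named genes, Chil3 changed sign to 2.23 and Camp to 5.32 with Hlf and Procr, and Chil3 to 0.31 without granule-rich cells; 256 of 288 values stayed within their intervals. The HSC median stayed below 0 and the interferon median above 0 in all alternatives run, from -0.40 to -0.22 and from 0.37 to 0.72. The 67 deleted cells limit single genes of that library, and the cause of these shifts was not tested.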
